A study of Mus musculus with 9 samples.

Results

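K7M2 is an osteosarcoma line of the mouse, grown from a bone tumour and used for its spread to the lung. The 3 untreated libraries of K7M2 cells are described here, of 9 libraries in the series. They were chosen by their labels, which give no treatment, the wild-type (WT) genotype and, in the titles, 24 h, and the cells were kept in DMEM with 10% fetal bovine serum and antibiotics. The other libraries come from K7M2 cells given mouse platelets and are not analysed here. All 3 libraries come from 1 cell line, and the labels do not say whether they are separate cultures, so the spread between them may be technical. A gene was called expressed where its level was at least 1 FPKM (fragments per kilobase of transcript, scaled by the number of mapped fragments) in all 3 libraries. Of 55401 genes in the table, 10914 were expressed, which is 19.7%. Of the 21807 protein-coding genes, 9436 were expressed, which is 43.3%. No count was found in any library for 59.9% of all genes and 35.8% of the protein-coding genes. Lists of marker, receptor, ligand and matrix genes are read against these shares below.

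Osteosarcoma is a tumour of mesenchymal cells that make bone matrix. Bone-forming cells, the osteoblasts, arise from mesenchymal progenitors under the transcription factors Runx2 and then Sp7, lay down type I collagen, and mineralise it with the help of alkaline phosphatase. A tumour cell also reads its surroundings through surface receptors, and it acts on neighbouring cells through secreted ligands and matrix. A level in FPKM is scaled by transcript length, so levels can be set side by side between genes within these libraries. Close copies of a gene and overlapping genes can still distort a level.

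The libraries held 51452538, 54240592 and 37465049 counts. A ratio of about 4 counts per fragment was inferred from a pile-up of genes at 4 counts. The number of genes at 1 FPKM or more was 11456 in replicate 1, 11538 in replicate 2 and 11530 in replicate 3. No pair was a repeat deposit, since the chi-square per gene between libraries was 9.196 to 14.03. The SD of log2(FPKM + 1) over the 3 libraries had a median of 0.14 among genes at 1 to 2 FPKM and 0.07 among genes at 10 to 100 FPKM. The coefficient of variation (CV) is the SD as a share of the mean. Its median was 7.32% over all expressed genes and 16.4% at 1 to 2 FPKM. A median is a typical spread and not the error of a single gene, so means given below without an SD may vary more. The median CV does not cover genes under 1 FPKM, where a mean can rest on 1 library. Of the expressed genes, 434 differed by more than 2-fold between libraries. The 100 leading genes held 33.1% to 33.6% of the summed FPKM, and mitochondrial genes held 10.8% to 11.2%. By counts, mitochondrial genes held 3.26% to 3.41%. Pseudogenes held 12.3% to 12.8% of the summed FPKM.

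The most abundant transcripts were those of translation and respiration. Rplp1, a ribosomal stalk protein, averaged 5464 ± 742 FPKM (SD, n = 3), and mt-Co1, a subunit of cytochrome c oxidase, averaged 4684 ± 151 FPKM. Outside ribosomal, mitochondrial and predicted genes, the translation elongation factor Eef1a1 came first at 2461 ± 25.6 FPKM. S100a4, a calcium-binding protein known from motile mesenchymal cells and metastasis, had 1697, 2031 and 1913 FPKM in replicates 1, 2 and 3. Lgals1, a galactose-binding lectin, had 1732, 2033 and 1829 FPKM. S100a4 and Lgals1 overlapped in range, and both lay below Eef1a1 in every library. The ferritin light chain Ftl1 averaged 1560 FPKM, the chaperone Hsp90ab1 1196 FPKM and the glycolytic enzyme Pkm 1165 FPKM. Small RNA genes overlap Eef1a1 and Ftl1 on the same strand, Gm26377 at 1730 FPKM and Gm22133 at 2078 FPKM. The counts of Eef1a1 and Ftl1 may be split with these genes. Actb, cytoskeletal actin, averaged 731 FPKM. The 11.0 ± 2.60 FPKM listed for Gapdh, a glycolytic enzyme, cannot be read as its level. Its own transcripts held 2077, 3479 and 1807 counts, while 121 near-identical copies with counts held 99823, 110974 and 72436.

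The upstream sequence of genes differed in composition with their level. The 250 bases before the start were read for 16773 of the 21744 protein-coding genes whose name stands once in the table, from RefSeq promoters on GRCm38.p6. Where a gene had several promoters, the one nearest its start in the deposited table was taken. Promoters of genes with 0 counts held a median of 3 CG dinucleotides, against 16 at 1 to 10 FPKM and 18 at 100 FPKM or more. The letters GGGCGG, on either strand, stood in 20.8% of promoters of genes with 0 counts and 64.2% of those at 10 to 100 FPKM, with 44.3% over all promoters. The letters TATAAA, on either strand, stood in 21.0% of promoters of genes with 0 counts, 5.32% at 1 to 10 FPKM, 10.7% at 100 FPKM or more and 12.1% over all promoters. CCAAT, on either strand, stood in 36.2% of all promoters. A further search, for TGACTCA or TGAGTCA, found a match in 4.01% of all promoters. These shares describe genes and carry no test.

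The upstream sequences of 4 genes on which the account below turns are shown because their levels and their base composition do not run together. Spp1 and S100a4 were highly expressed and Alpl had no count, yet Alpl had the promoter with 20 CG dinucleotides, against 3 in Spp1, 2 in S100a4 and 0 in Il1rl1. Each is printed 5′ to 3′ on the strand of its gene and ends at the base before the RefSeq start, with matches to any motif searched, on either strand, in capitals. Spp1 lies at chr5:104434861-104435110 on the plus strand, S100a4 at chr3:90603520-90603769 on the plus strand, Il1rl1 at chr1:40429320-40429569 on the plus strand and Alpl at chr4:137796385-137796634 on the minus strand.
Spp1: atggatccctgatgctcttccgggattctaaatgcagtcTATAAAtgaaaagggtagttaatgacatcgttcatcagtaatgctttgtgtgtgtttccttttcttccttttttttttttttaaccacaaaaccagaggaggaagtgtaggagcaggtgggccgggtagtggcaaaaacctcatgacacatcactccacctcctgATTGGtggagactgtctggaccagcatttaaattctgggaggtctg
S100a4: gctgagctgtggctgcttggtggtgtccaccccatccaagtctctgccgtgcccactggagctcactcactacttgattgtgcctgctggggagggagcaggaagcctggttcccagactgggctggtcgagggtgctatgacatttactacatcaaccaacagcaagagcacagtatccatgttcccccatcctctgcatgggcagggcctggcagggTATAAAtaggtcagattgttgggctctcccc
Il1rl1: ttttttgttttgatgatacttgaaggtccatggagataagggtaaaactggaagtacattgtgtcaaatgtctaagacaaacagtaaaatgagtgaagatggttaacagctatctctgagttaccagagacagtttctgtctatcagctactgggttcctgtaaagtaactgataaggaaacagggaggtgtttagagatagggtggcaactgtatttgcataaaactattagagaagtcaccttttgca
Alpl: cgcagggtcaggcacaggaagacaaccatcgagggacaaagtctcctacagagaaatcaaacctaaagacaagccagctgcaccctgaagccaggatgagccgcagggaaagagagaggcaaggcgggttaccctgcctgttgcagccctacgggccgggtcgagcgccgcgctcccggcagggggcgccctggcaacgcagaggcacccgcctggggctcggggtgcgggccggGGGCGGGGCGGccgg
The TATAAA of S100a4 began 31 bases before the start and that of Spp1 211 bases before it. Spp1 also held ATTGG, which is CCAAT on the other strand, 46 bases before the start. Alpl held 2 overlapping matches to GGGCGG, 15 and 10 bases before the start. Il1rl1 held none of the motifs in this window. A match is a run of letters and not a shown binding site. Which start each gene used in these cells was not tested.

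The markers of bone formation were present in part. Of 11 osteoblast transcription factors, 5 were expressed, 45.5% against 43.3% of protein-coding genes. Runx2, the master regulator of the osteoblast, had 2.82, 3.71 and 3.80 FPKM in replicates 1, 2 and 3. Its relatives Runx1 and Runx3 averaged 2.44 and 1.54 FPKM. Atf4, a stress and osteoblast factor used widely by cells, was far above them at 115 ± 4.81 FPKM. Runx2 was thus low but present in every library. Sp7, the factor that acts after Runx2, had no count in any library, which allows at most 0.0932 FPKM at 3 fragments per library. The homeobox factors Msx1, Msx2, Dlx5 and Dlx6, which act in skeletal development, also had no count.

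Of 20 genes of bone matrix and mineralisation, 9 were expressed, 45% against 43.3% of protein-coding genes. Spp1, the secreted phosphoprotein osteopontin, had 313, 320 and 341 FPKM and stood at rank 78 among protein-coding genes. Sparc, the collagen-binding glycoprotein osteonectin, had 149, 156 and 151 FPKM. Both were high in all 3 libraries, and neither is made by bone alone. The chains of type I collagen, a trimer with more of the first chain than of the second, were unequal at the RNA level. Col1a1, the first chain, had 12.6, 10.9 and 11.5 FPKM. Col1a2, the second chain, had 112, 107 and 110 FPKM, above Col1a1 in every library. Ank, a membrane protein in the export of pyrophosphate, averaged 27.8 FPKM, and the phosphate transporters Slc20a2 and Slc20a1 averaged 17.4 and 12.9 FPKM. Phospho1, a phosphatase of matrix vesicles, averaged 3.47 ± 1.08 FPKM.

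Further markers of the osteoblast were at or near 0. Alpl, the alkaline phosphatase of mineralising cells, and Ibsp, bone sialoprotein, had no count, which allows at most 0.114 FPKM for Alpl and 0.140 FPKM for Ibsp. Bglap, osteocalcin, had 0.0603, 0.193 and 0.227 FPKM, under the threshold in every library. Bglap2 and Bglap3 are close copies, and counts may be split among them. Set against the label of the line, Runx2, Spp1, Sparc and Col1a2 were expressed, while Sp7, Alpl and Ibsp, which define the maturing osteoblast, were not detectable at this depth.

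Osteocytes are osteoblasts buried in bone. Of 10 osteocyte genes, 5 were expressed and 4 had no count. Pdpn, a mucin-like membrane protein and ligand of a platelet receptor, had 28.5, 30.8 and 28.4 FPKM. Capg, an actin-capping protein, averaged 51.0 FPKM, the potassium channel Kcnk2 4.13 FPKM, the homeobox factor Irx5 3.38 FPKM and Phex, an endopeptidase of phosphate balance, 1.93 FPKM. Sost, a Wnt inhibitor, Mepe, a phosphoglycoprotein, Fgf23, the phosphate hormone, and Dkk1, a further Wnt inhibitor, had no count. Dmp1, a matrix protein of osteocytes, had 0.0478 FPKM in replicate 1 and none in the others.

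**Figure D1:**
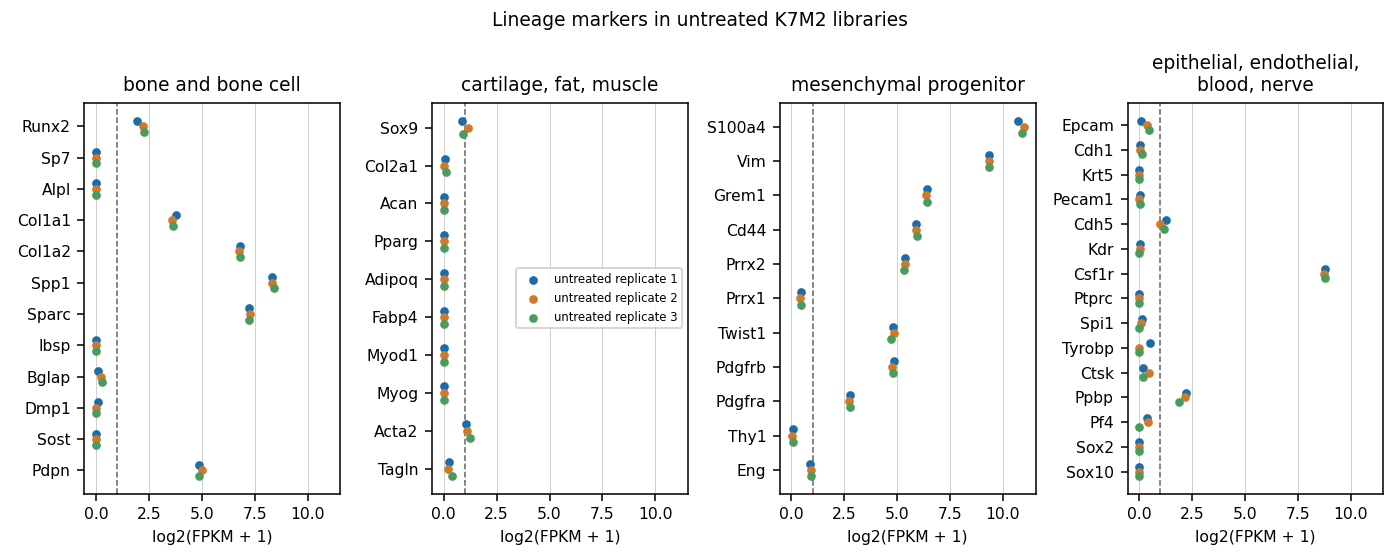
Levels of lineage markers as log2(FPKM + 1), with 1 point for each of the 3 untreated replicates and a dashed line at 1 FPKM. S100a4, Vim, Csf1r, Spp1 and Sparc lie far to the right, and Sp7, Alpl, Ibsp, Pparg, Myod1 and Sox2 lie at 0 in all 3 replicates.

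Progenitor genes were largely expressed. Of 24 genes listed for mesenchymal progenitors, 16 were expressed, 66.7%, and 1 had no count. Vim, the intermediate filament of mesenchymal cells, had 648, 641 and 645 FPKM. Grem1, a secreted antagonist of BMPs (bone morphogenetic proteins), had 83.7, 81.6 and 83.9 FPKM. Cd44, the hyaluronan receptor, averaged 58.9 ± 1.75 FPKM and Ly6a, the surface antigen Sca-1, 42.3 ± 3.79 FPKM. Spread was small beside the level for Vim, Grem1 and Cd44, and wider for Ly6a, at 38.9, 46.4 and 41.5 FPKM.

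Paired homeobox factors of early mesenchyme were unequal. Prrx2 had 40.7, 40.6 and 38.9 FPKM, while Prrx1 had 0.372, 0.340 and 0.382 FPKM and was under the threshold in every library. The receptor Pdgfrb averaged 26.8 FPKM, its relative Pdgfra 5.77 FPKM and the intermediate filament Nes 24.4 FPKM. Twist1, a factor of mesoderm, had 26.5, 27.5 and 25.2 FPKM. Its relative Twist2 had 23.0, 41.9 and 19.2 FPKM, so replicate 2 was high. Twist2 is overlapped on the other strand by a predicted gene, Gm29100, at 5.03 FPKM. Other surface markers used to sort stromal cells stood below these receptors, Ly6a and Cd44. Thy1 averaged 0.0511 FPKM and Nt5e 0.0196 FPKM, and Eng, a TGF-beta co-receptor, averaged 0.864 ± 0.0482 FPKM.

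Of 14 genes of mesenchymal transition, 10 were expressed. The repressors Zeb1 and Snai1 averaged 12.3 and 9.73 FPKM, and N-cadherin (Cdh2) averaged 17.8 FPKM, while Snai3 had no count. Of 19 epithelial genes, 0 were expressed, with Epcam at 0.236 FPKM, Cdh1 at 0.0561 FPKM and the keratin Krt8 highest at 0.615 FPKM.

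Cartilage, fat and skeletal muscle lists held at most 1 expressed gene each. Of 20 cartilage genes, 0 were expressed and 15 had no count, among them Acan and Col10a1. Sox9, the master regulator of cartilage, was nearest the threshold with 0.808, 1.23 and 0.868 FPKM. Of 12 fat cell genes, Pnpla2, a lipase that many cells use, was the 1 expressed, at 9.19 FPKM, and Pparg and Adipoq had no count. Of 18 skeletal muscle genes, Pax3, a factor of muscle precursors and neural crest, was the 1 expressed, at 2.18, 2.02 and 2.42 FPKM, and Myod1 and Myog had no count. Of 15 smooth muscle and contractile genes, 5 were expressed. They were Tpm1, Cnn2, Cald1 and Smtn at 170, 107, 65.0 and 18.7 FPKM, and smooth muscle actin, Acta2, at 1.05, 1.14 and 1.34 FPKM. Tagln, another smooth muscle marker, averaged 0.211 FPKM.

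Csf1r stood apart from the other leukocyte genes listed. It encodes the receptor for colony-stimulating factor 1, which drives macrophages and their relatives. It had 447, 422 and 442 FPKM and stood at rank 54 of the protein-coding genes. Of 20 leukocyte genes listed, 2 were expressed, 10.0%, and the other was Cd68, a lysosomal protein, at 2.65 ± 0.143 FPKM. Ptprc, the pan-leukocyte marker CD45, averaged 0.00119 FPKM, Spi1, the macrophage factor PU.1, 0.0612 FPKM, and Tyrobp, a signalling adaptor, 0.144 FPKM. Summed over the 20 genes, the list held 427 to 453 FPKM, nearly all of it from Csf1r. The list leaves out the leukocyte integrin chains Itgb7 and Itgb2, which averaged 136 and 47.5 FPKM. In bulk RNA, few cells of a type and little RNA per cell cannot be told apart. Csf1r has no promoter in the RefSeq table, so its upstream sequence is not shown.

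Other blood and vessel lists held few expressed genes. Of 10 osteoclast genes, Nfatc1, a factor of T cells and osteoclasts, had 9.52 FPKM and Mmp9, a gelatinase, had 1.42 FPKM, while the osteoclast protease Ctsk averaged 0.213 FPKM. Of 14 endothelial genes, 0 were expressed. Cdh5, the cadherin of vessel walls, was nearest, with 1.45, 0.994 and 1.27 FPKM, and Pecam1 averaged 0.0188 FPKM. Of 14 platelet and megakaryocyte genes, Ppbp, a chemokine of platelet granules, was the 1 expressed, with 3.58, 3.52 and 2.70 FPKM. Pf4, stored in the same granules, had 0.203 FPKM, Itga2b, the platelet integrin chain, had 0.0364 FPKM, and Tubb1, the platelet tubulin, had no count. Of 8 red cell genes, 0 were expressed, although Hba-a1, a globin, averaged 1.18 FPKM with replicate 1 under the threshold.

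Among 8 liver genes, Afp, the fetal serum protein alpha-fetoprotein, was the 1 expressed. It had 21.2, 22.5 and 19.96 FPKM. The other liver genes did not follow it, since Alb averaged 1.04 FPKM with replicate 3 at 0 and Hnf4a averaged 0.0931 FPKM. Of 15 neural genes, Tubb3 alone was expressed, at 4.07 FPKM. All 13 genes of pluripotency and the germ line had no count, Pou5f1, Nanog, Sox2, Kit and the telomerase subunit Tert among them.

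Hox genes are transcription factors that give cells a position along the body, and their clusters are read in order from head to tail. Cells of a mesenchymal origin often keep the Hox pattern of their site. Of 9 genes in the Hox C cluster, 5 were expressed. Hoxc10, a gene of the posterior trunk and hindlimb, had 46.1, 45.4 and 42.7 FPKM, the highest of all Hox genes in the table. Hoxc6 averaged 8.64 FPKM, Hoxc11 6.03 FPKM, Hoxc13 4.83 FPKM and Hoxc9 3.69 FPKM, with no overlap between neighbours in this order. Hoxc12, between Hoxc11 and Hoxc13, had no count.

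In the Hox B cluster, 6 of 10 genes were expressed. Hoxb7 had 14.1, 19.8 and 15.8 FPKM, and Hoxb6 had 12.2, 12.2 and 12.1 FPKM. In the Hox A cluster, 7 of 11 genes were expressed, all from Hoxa2 to Hoxa10 except Hoxa3, whose mean was 1.11 FPKM with a low of 0.998 FPKM. Hoxa7 led at 7.12 ± 1.35 FPKM, and Hoxa5, Hoxa6, Hoxa10 and Hoxa9 overlapped their neighbours between 4.14 and 3.06 FPKM. Hoxa11 and Hoxa13 had no count. In the Hox D cluster, 0 of 9 genes were expressed and 8 had no count, the exception being Hoxd8 at 0.0241 FPKM in replicate 1.

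**Figure D2:**
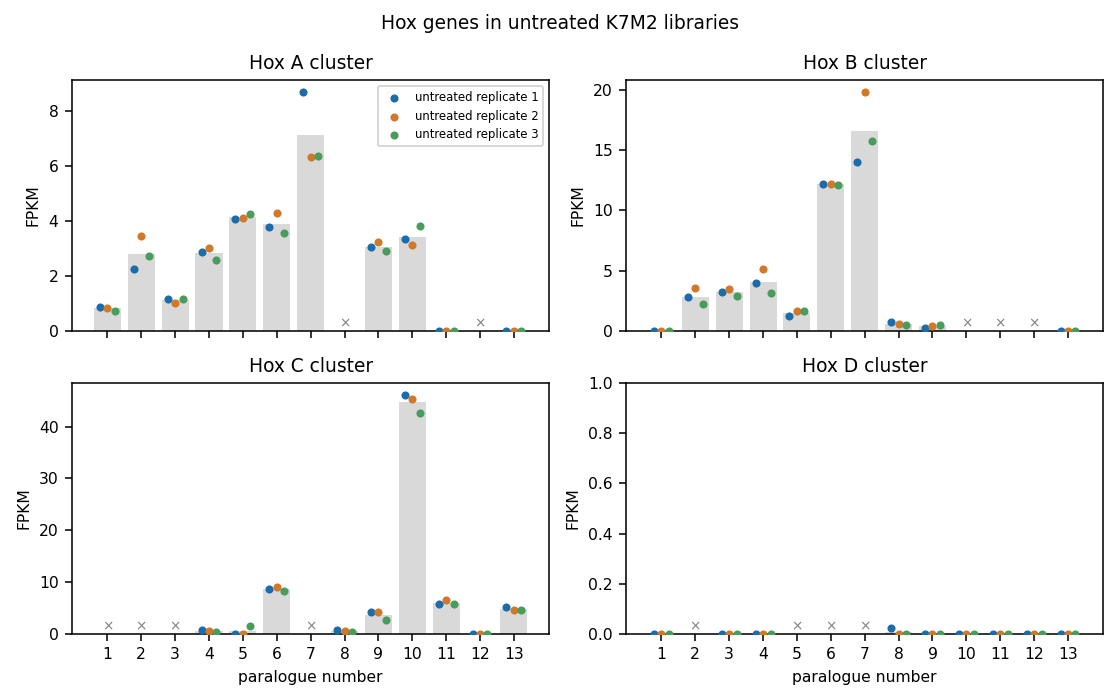
FPKM of the Hox genes by cluster and paralogue number, with grey bars for the mean, 1 point for each untreated replicate and a cross where a cluster has no such paralogue. Hoxc10 stands highest at 44.7 FPKM, and the Hox D panel, drawn on an axis that ends at 1 FPKM, holds no gene above 0.0241 FPKM.

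Further position factors were expressed in 6 of 22 cases. Foxf1, a forkhead factor of gut and body wall mesoderm, averaged 38.0 ± 1.16 FPKM and its relative Foxf2 9.10 FPKM. Pitx1, a factor of the hindlimb, had 12.4, 12.7 and 10.8 FPKM. Tbx4 and Tbx5, T-box factors of the hindlimb and the forelimb, had no count. Tbx15 and Tbx3 averaged 3.97 and 3.63 FPKM and overlapped, and the homeobox factor Shox2 averaged 2.54 FPKM.

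Of 58 receptor tyrosine kinases, 19 were expressed, 32.8%, and 21 had no count. Below Csf1r came Axl, the receptor for Gas6 and protein S, with 138, 137 and 136 FPKM. Ddr2, a receptor for fibrillar collagen, had 78.6, 74.9 and 86.7 FPKM, and Epha2, an ephrin receptor, had 60.7, 58.8 and 58.8 FPKM. These 4 receptors did not overlap. Ryk, a Wnt co-receptor, and Pdgfrb both averaged 26.8 FPKM and could not be put in order. Egfr, the receptor for epidermal growth factor, averaged 12.1 ± 1.07 FPKM. Then came Ddr1, Igf1r, Erbb2, Ephb4, Met and Fgfr1, from 7.08 to 6.42 FPKM, whose neighbours overlapped. Met, the receptor for hepatocyte growth factor, averaged 6.46 ± 0.838 FPKM, and Igf1r, the receptor for insulin-like growth factor 1, 6.79 ± 0.238 FPKM. Kit, Ret, Alk, Ror1, Ror2 and Ptk7 had no count, which for Kit allows at most 0.0551 FPKM.

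Of 14 receptors for TGF-beta and BMPs, 8 were expressed. Tgfbr2, the ligand-binding TGF-beta receptor, led at 15.2 FPKM, followed by Tgfbr3 at 10.8 FPKM, Bmpr1a at 9.84 FPKM, Tgfbr1 at 8.65 FPKM and Acvr1 at 7.93 FPKM. Bmpr1b had no count. Of 19 Wnt receptors, 5 were expressed, with Lrp6 at 5.52 FPKM and Fzd7 at 5.43 FPKM next to Ryk. Of 11 Notch and hedgehog receptors, 4 were expressed, Gas1 at 25.7 FPKM, Notch2 at 20.8 FPKM, Smo at 9.75 FPKM and Ptch1 at 2.74 FPKM. Of 22 receptors for bone, steroid and peptide hormones, 9 were expressed. The glucocorticoid receptor Nr3c1 averaged 43.5 ± 1.62 FPKM and the retinoic acid receptor Rarg 22.7 FPKM, while Pth1r, the parathyroid hormone receptor, averaged 0.0563 FPKM.

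Of 37 cytokine receptors, 18 were expressed, 48.6%. Il1rl1, the receptor ST2 that binds interleukin 33, had 128, 152 and 159 FPKM. Its co-receptor Il1rap averaged 7.43 FPKM. Il1rl1 was the highest of the list in every library. Its level is given per gene, so forms of its transcript cannot be told apart. Il6st, the shared signalling chain gp130, averaged 39.9 ± 2.67 FPKM, with Il6ra at 3.41 FPKM and Lifr at 0.00459 FPKM. Interferon receptor chains were modest, with Ifngr2 at 4.99 FPKM, Ifnar2 at 4.60 FPKM, Ifnar1 at 4.33 FPKM and Ifngr1 at 4.22 FPKM, which overlapped as neighbours.

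Of 26 TNF receptors, 12 were expressed. Tnfrsf12a, the receptor for TWEAK, had 40.8, 35.2 and 30.6 FPKM, and it overlapped with Tnfrsf1a at 32.9 FPKM. Tnfrsf1b averaged 31.2 FPKM, and Fas, a death receptor, 1.72 FPKM. Tnfrsf11b, the decoy receptor osteoprotegerin, had no count. Of 22 chemokine receptors, 2 were expressed and 13 had no count. Ackr3, an atypical receptor that binds Cxcl12, averaged 7.75 ± 0.596 FPKM and Ccr10 1.22 FPKM, while Cxcr4 averaged 0.0120 FPKM. Of 12 Toll-like receptors, 3 were expressed. Tlr4, the receptor for lipopolysaccharide, had 7.69, 1.13 and 1.501 FPKM, so its mean of 3.44 FPKM rests on replicate 1.

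Of 36 receptors for platelet and lipid mediators, 9 were expressed, 25.0%, and 14 had no count. F2r, the thrombin receptor PAR1, had 124, 119 and 124 FPKM and was the highest of the list. Lpar1, a receptor for lysophosphatidic acid, averaged 6.61 FPKM. P2ry2, a nucleotide receptor, had 6.09, 3.69 and 7.69 FPKM, overlapping Lpar1. S1pr1 and S1pr2, receptors for sphingosine 1-phosphate, averaged 5.25 and 4.16 FPKM. F2rl3, the thrombin receptor PAR4, averaged 0.0843 FPKM, and the ADP receptors P2ry1 and P2ry12 had no count.

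Integrins join an alpha and a beta chain and bind cells to matrix or to other cells. Of 26 chains, 9 were expressed. Itgb1, the beta chain with the most partners, had 203, 211 and 199 FPKM. Among alpha chains, Itga3, a laminin receptor chain, averaged 62.5 FPKM, Itga5, a fibronectin receptor chain, 21.8 FPKM, Itgav, a vitronectin receptor chain, 8.26 FPKM and Itga6, a further laminin receptor chain, 3.74 FPKM. Beta chains of leukocyte and epithelial integrins were high beside their partners. Itgb7 had 142, 138 and 129 FPKM, while its partners Itga4 and Itgae averaged 0.0292 and 0.0425 FPKM. Itgb2 averaged 47.5 ± 2.43 FPKM, while its partners Itgal and Itgam averaged 0.0854 and 0.0310 FPKM and Itgax and Itgad had no count. Itgb4 averaged 52.2 ± 2.28 FPKM, above its partner Itga6. Itgb3 averaged 0.0121 FPKM and was at 0 in replicate 3.

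**Figure D3:**
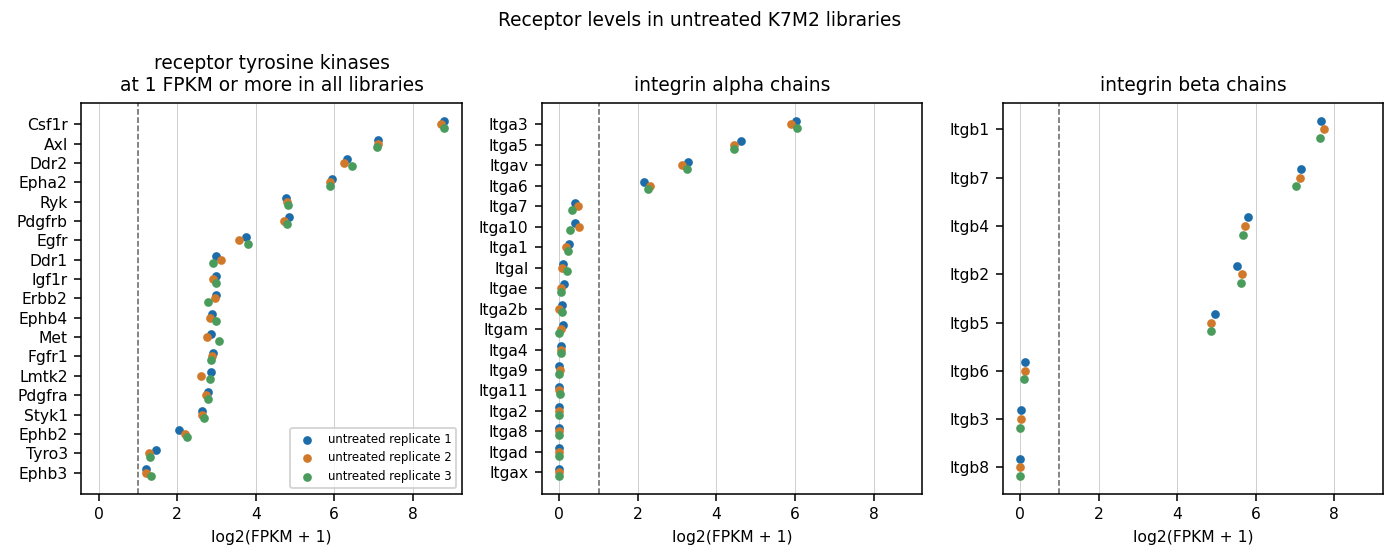
Levels as log2(FPKM + 1) of the 19 expressed receptor tyrosine kinases, of the integrin alpha chains and of the integrin beta chains, with 1 point per untreated replicate and a dashed line at 1 FPKM. Csf1r and Axl lead the kinases, Itga3 leads the alpha chains, and Itgb1 and Itgb7 lead the beta chains.

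Of 38 other adhesion molecules, 19 were expressed. Bsg, basigin, a partner of lactate transporters, averaged 214 ± 7.27 FPKM, the tetraspanin Cd9 121 FPKM and the heparan sulfate carrier Gpc1 104 FPKM. Selp and Selplg, a selectin and its ligand, had no count. Of 29 immune ligands and complement regulators, 13 were expressed. B2m, the light chain of class I antigen presentation, had 745, 769 and 742 FPKM. The class I heavy chain H2-D1 averaged 154 FPKM and H2-K1 41.8 FPKM, with the reserve that class I genes are alike and counts may be split among them. Ulbp1, a ligand of the NK cell receptor NKG2D, averaged 40.9 ± 1.42 FPKM, and it is overlapped on the other strand by the predicted gene Gm46209 at 21.3 FPKM. Cd274, the checkpoint ligand PD-L1, had 1.09, 0.758 and 1.23 FPKM and was not called expressed.

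The ligand lists had 48 of 234 entries expressed, the receptor lists 130 of 350, and a gene may be entered more than once. Both lie under the 43.3% of protein-coding genes expressed. By the authors' annotation, the expressed share was 21.3% among genes of the extracellular space or matrix and 26.8% among cell surface genes. Of 37 chemokine ligands, 7 were expressed, 18.9%. Ccl2, a chemokine for monocytes, had 73.8, 81.8 and 74.2 FPKM. Ccl7 and Ccl9, of the same family, averaged 47.7 and 42.3 FPKM. The neutrophil chemokines Cxcl5 and Cxcl1 averaged 14.3 and 7.32 FPKM. Cxcl12, the main chemokine of bone marrow stroma, had 3.43, 6.30 and 2.91 FPKM, so replicate 2 stood above the other two.

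Growth factor ligands were led by Hdgf, a nuclear and secreted growth factor, at 264 ± 6.05 FPKM. Of 22 genes in the list of PDGF, VEGF, HGF and angiopoietin ligands, 11 were expressed. Csf1, the ligand of Csf1r, had 50.0, 46.0 and 47.1 FPKM. Vegfb averaged 32.9 FPKM, Kitl, the ligand of Kit, 30.8 FPKM, Vegfc 12.7 FPKM and Vegfa 5.92 FPKM. Of 11 EGF family ligands, 3 were expressed, Hbegf at 14.7 FPKM, Ereg at 12.7 FPKM and Nrg1 at 2.80 FPKM. Of 18 FGF ligands, 2 were expressed, Fgf7, a growth factor for epithelium, at 25.8 ± 0.103 FPKM and Fgf10 at 4.53 FPKM.

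Of 40 TGF-beta and BMP ligands and their antagonists, 13 were expressed. After Grem1, Ltbp1, which binds latent TGF-beta, averaged 42.9 FPKM, and Tgfb1 averaged 11.1 ± 1.34 FPKM. Bmp4 had 10.2, 22.4 and 21.98 FPKM, so replicate 1 was low. The BMP antagonist Nog had no count. Of 11 insulin-like growth factors, insulins and binding proteins, 3 were expressed, all of them binding proteins. Igfbp7 averaged 83.4 FPKM, Igfbp6 43.7 FPKM and Igfbp4 10.4 FPKM, against 0.00759 FPKM for Igf1 and no count for Igf2, Igfbp1 and Igfbp2.

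Of 32 Wnt ligands and antagonists, 2 were expressed, Wnt9a at 1.81 FPKM and Wnt5a at 1.24 FPKM, and 22 had no count, among them the antagonists Dkk1, Sfrp1 and Wif1. Of 8 Notch and hedgehog ligands, Jag1 was the 1 expressed, at 1.83 FPKM. Of 37 interleukins, interferons and colony-stimulating factors, 6 were expressed. Mif, a cytokine found in many cells, averaged 486 ± 31.5 FPKM, and after Csf1 the next was Clcf1 at 3.63 FPKM. Il6 averaged 0.00907 FPKM, and Il1b, Il10 and Il33 had no count. Of 18 TNF ligands, 0 were expressed, with Tnfsf12, or TWEAK, nearest at 1.06 FPKM and a low of 0.752 FPKM. Tnfsf11, the osteoclast factor RANKL, had no count.

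Pairs of ligand and receptor, chosen after their values were seen, were set side by side in 35 cases. Both partners were expressed in 8 pairs, the receptor alone in 11, the ligand alone in 15 and neither in 1. Csf1r had its ligands Csf1 and Il34, the second at 3.18 FPKM. Axl had protein S, Pros1, at 2.65 FPKM, while Gas6 was at 0.0690 FPKM. Egfr had Hbegf and Ereg, Pdgfra had Pdgfa at 5.57 FPKM, Tgfbr2 had Tgfb1, and Ackr3 had Cxcl12. Il1rl1 stood without Il33, Met without Hgf, which averaged 0.00575 FPKM, and Igf1r without Igf1 or Igf2. Kitl stood without Kit, Ccl2 without Ccr2, Pdpn without Clec1b, and Vegfa without Kdr, which averaged 0.0164 FPKM. Fgf7 and Fgf10 stood above their receptor Fgfr2, at 0.849 FPKM. RNA levels do not show whether a pair meets at the cell surface.

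**Figure D4:**
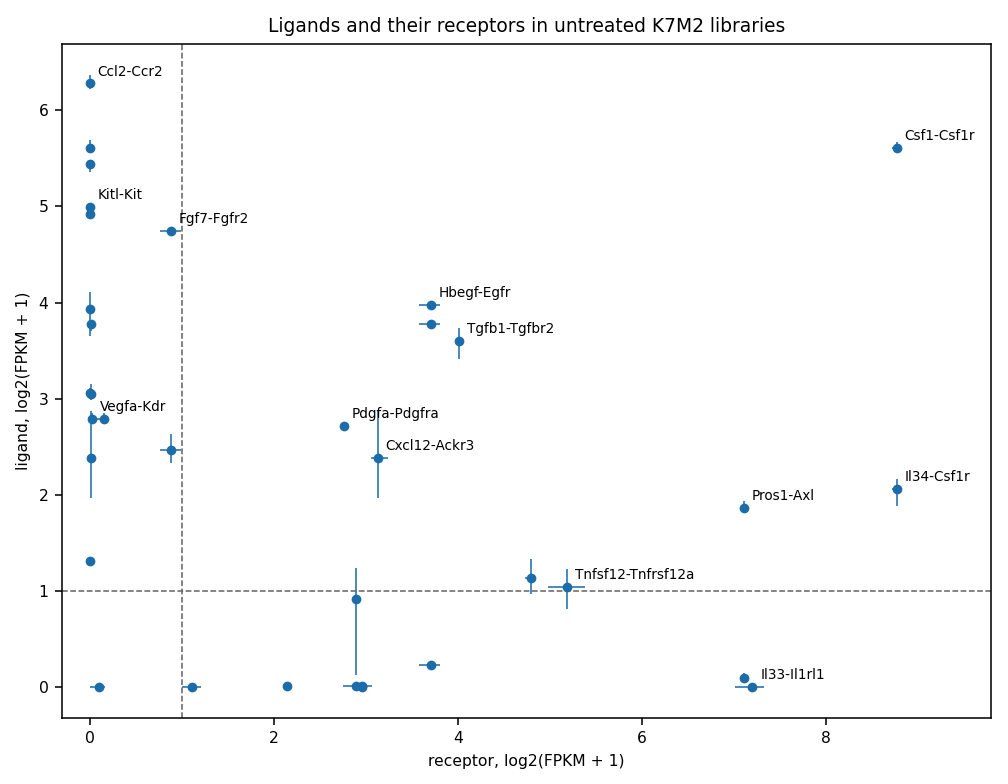
Mean level of the ligand against that of the receptor for 35 pairs, both as log2(FPKM + 1), with bars for the range of the 3 untreated replicates and dashed lines at 1 FPKM. Csf1 with Csf1r lies alone at the upper right, Il33 with Il1rl1 at the lower right, and Ccl2 with Ccr2 and Kitl with Kit at the upper left.

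Of 44 collagen chains, 11 were expressed, 25.0%, and 13 had no count. Col18a1, whose end yields endostatin, had 134, 128 and 128 FPKM. Col3a1, of type III collagen, had 134, 126 and 128 FPKM, but it is overlapped on the same strand by the predicted gene Gm47302 at 323 FPKM, and its level is uncertain. Col1a2 came next, and Col5a1, which nucleates fibrils, averaged 29.1 ± 1.77 FPKM. Col6a1 averaged 14.7 FPKM while its partner chain Col6a2 averaged 0.164 FPKM. Col4a1 and Col4a2, the chains of basement membranes, averaged 0.0629 and 0.146 FPKM. Of 28 genes that fold and modify collagen, 20 were expressed, or 71.4%. P4hb, a prolyl hydroxylase subunit, averaged 525 ± 4.001 FPKM, Serpinh1, the collagen chaperone, 258 ± 8.61 FPKM, and Pcolce, which aids procollagen cleavage, 66.2 FPKM. The crosslinking enzyme Lox averaged 1.72 FPKM and its relative Loxl4 15.02 FPKM.

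Of 19 laminins and basement membrane genes, 8 were expressed. Lamb1 had 45.4, 41.1 and 44.1 FPKM and Lamc1 36.8, 34.8 and 35.4 FPKM, and the proteoglycan Hspg2 averaged 30.2 FPKM. The alpha chains needed for a trimer were lower, with Lama3 at 1.45 FPKM, Lama5 at 1.07 FPKM and no count for Lama1. Of 37 proteoglycans and glycoproteins, 12 were expressed. Bgn, biglycan, had 65.3, 61.7 and 59.5 FPKM, Vcan, versican, averaged 27.0 FPKM and Fn1, fibronectin, 26.3 ± 1.86 FPKM, and Vcan and Fn1 overlapped. Decorin, Dcn, averaged 0.0104 FPKM, and elastin, Eln, had no count. Of 23 CCN and matricellular genes, 8 were expressed. Ccn1 and Ccn2, matrix signals of stretched and growing cells, averaged 65.4 and 28.4 FPKM, and Postn and Thbs1 averaged 0.0205 and 0.210 FPKM.

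**Figure D5:**
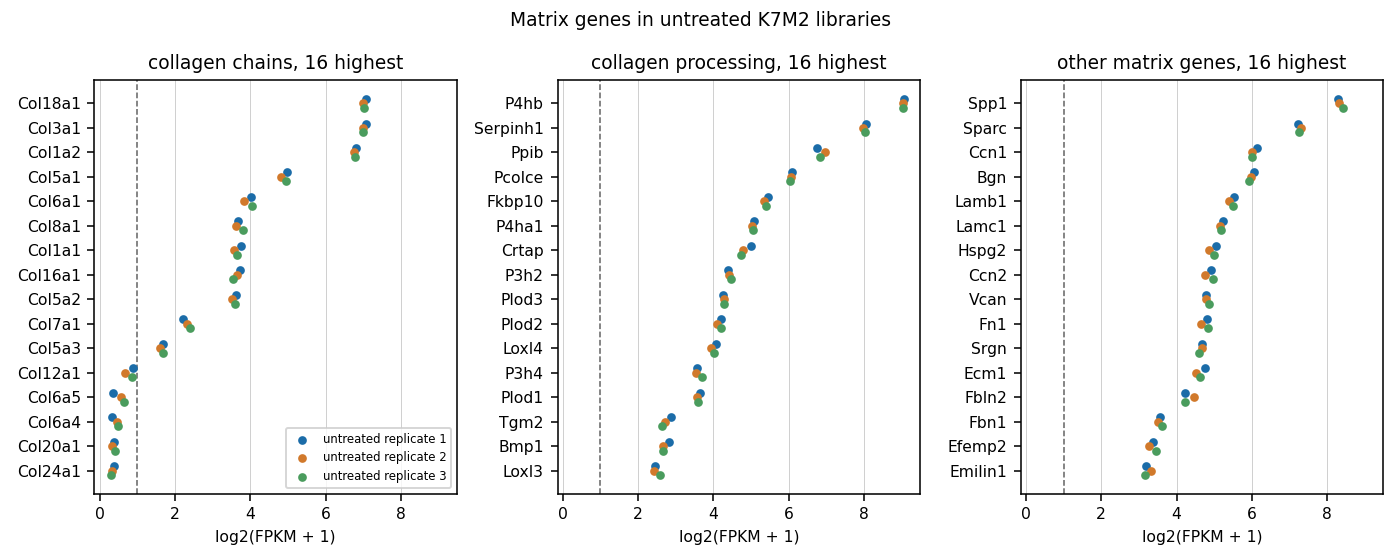
Levels as log2(FPKM + 1) of the 16 highest collagen chains, collagen processing genes and other matrix genes, with 1 point per untreated replicate and a dashed line at 1 FPKM. Col18a1, Col3a1 and Col1a2 lead the collagens, P4hb and Serpinh1 the processing genes, and Spp1 and Sparc the other matrix genes.

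Of 28 metalloproteinases and their inhibitors, 7 were expressed, and inhibitors led the list. Timp2, an inhibitor, had 326, 307 and 316 FPKM, and Timp1 averaged 31.4 ± 3.30 FPKM. The membrane protease Mmp14 averaged 14.1 ± 0.814 FPKM and Mmp2, which it activates together with Timp2, 3.27 ± 0.201 FPKM. Mmp13, a collagenase of bone, averaged 0.160 FPKM, and Mmp3, Mmp7 and Mmp8 had no count. Of 16 plasminogen and clotting genes, 9 were expressed. Anxa2 and S100a10, which form a plasminogen receptor, averaged 401 and 281 FPKM. Plaur, the urokinase receptor, averaged 30.5 FPKM and its ligand Plau 20.2 FPKM. Tissue factor, F3, which starts clotting, had 2.25, 2.20 and 2.58 FPKM. Of 31 cathepsins and ADAM proteases, 16 were expressed, with Ctsl at 166 FPKM, Ctsz at 102 FPKM and Ctsd at 99.7 FPKM.

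Growth control genes were mostly expressed. Of 33 tumour suppressors, 30 were expressed, 90.9%, against 43.3% of protein-coding genes. Trp53, the gene of p53, had 70.3, 73.4 and 69.7 FPKM, and its processed copy held 316, 287 and 160 counts beside 16308, 18031 and 11714 for Trp53. Cdkn1a, the p21 inhibitor, averaged 67.6 ± 2.30 FPKM. Cdkn2a, which encodes the cell cycle inhibitor p16 and the p53 activator p19, had 0, 0.309 and 0.193 FPKM, and its neighbour Cdkn2b had no count. Mtap, the neighbouring gene on the other side, had 65.4, 64.1 and 69.7 FPKM. The 3 genes lie on chromosome 4, Mtap from 89137122 to 89181081, Cdkn2a from 89274471 to 89294653 and Cdkn2b from 89306299 to 89311039 in the coordinates of the deposited table. RNA levels do not show whether a gene is deleted.

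Of 43 oncogenes and growth drivers, 34 were expressed. Ccnd1, cyclin D1, had 420, 420 and 417 FPKM. Akt1 averaged 110 FPKM, Cdk4, the kinase partner of Ccnd1, 61.2 FPKM and Myc 18.9 ± 2.26 FPKM. Within the AP-1 family, Fosl1 averaged 66.2 ± 2.29 FPKM and Jun 26.1 FPKM, while Fos had 0.151, 0.106 and 0.194 FPKM. Of the paired co-activators of growth, Wwtr1 averaged 34.4 FPKM and Yap1 0.695 FPKM. Hmga2, a chromatin protein of embryonic cells, averaged 17.5 ± 0.145 FPKM. Nras had 10.46, 23.9 and 24.6 FPKM, so replicate 1 was low. Xist, the RNA that silences an X chromosome, had 48.4, 42.3 and 51.0 FPKM, although the predicted gene Gm27927 overlaps it on the same strand at 64.9 FPKM. On the Y chromosome 0 of 172 protein-coding genes were expressed, against 255 of 933 on the X chromosome.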

How the data were processed

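RNA from untreated K7M2 cells was sequenced from libraries made with an mRNA kit, per the labels' protocols. The authors deposited 1 table of genes with FPKM values, and FPKM of 0.0001 stands there for genes without counts and was read as 0. The same deposited table gives estimated counts, which piled up at 4. The counts of well-covered single-transcript genes, 1169 to 1386 per library, were rebuilt from FPKM, transcript length and a scale for each library. Nearly all came within 1%. Single-transcript genes with fewer counts were not checked in this way. The build GRCm38 (mm10) is named in the submitters' processing notes. Strand use, aligner and counter are not given in the sources used, so the counts of genes that overlap are uncertain.

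From these values the mean, SD and rank of each gene were computed over the 3 untreated libraries with Python 3.11.15, numpy 2.4.6, pandas 2.3.3 and matplotlib 3.10.9, without a pseudocount except for spread and plots (1). The calculation was tested on simulated data. No test was made, because there is 1 group. Neighbours in an order are said to differ where the ranges of their 3 libraries do not overlap. A gene with 0 counts was given the limit of 3 fragments, 12 counts, or 0.233, 0.221 and 0.320 CPM in replicates 1, 2 and 3. The libraries carry no molecular identifiers, so such limits cover counting error only. They also rest on the inferred ratio of about 4 counts per fragment and on the scale for each library. The highest of the 3 limits is printed, in FPKM over the longest transcript. Near-identical copies were searched for 32 genes among reference transcripts, at 90% identity over 300 bases, and 27 had no copy with counts. The others were Gapdh, Trp53, Mif, Csf1r and Eef1a1. The match of Csf1r, Hmgxb3, held 4122, 4323 and 3167 counts beside 147913, 147701 and 106022 for Csf1r. The copies of Eef1a1 held 10870, 13188 and 9194 counts beside 347909, 375846 and 255290 for Eef1a1.

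The 58 lists hold 1168 genes, of which 411 were expressed and 359 had no count, and a gene may stand in several lists. Members and lists were chosen with earlier results of these data known. The rule for named genes took the 15 leading genes, the 5 highest of each list, every member of lists of up to 12 genes, up to 5 members per list with no count, and fixed genes such as Runx2, Alpl, Egfr, Itgb3 and Trp53. The text takes a part of these. Genes named outside the rule, among them integrin partners, members of pairs, lower members of lists and genes with a wide spread, were chosen after their values were seen. Some named items are not reported here. Upstream sequences came from RefSeq on GRCm38.p6.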

Additional observations from a re-analysis of the deposited data

How the results depend on the processing

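No paired analysis was possible because the results come from 1 group and from no test. The number of expressed genes was 10914, and it was 16606 where any value above 0 in all 3 libraries counted, which is by construction a lower threshold. It ran from 11088 to 11115 with 1 replicate left out, and under the other settings, at least 40 counts among them (chosen after the data were seen), it stayed between 9489 and 12814. List genes expressed ran from 366 to 503, against 411. The median level of the named genes was 11.4 FPKM, 36.0 when rescaled to TPM, and 11.3 to 11.5 FPKM with 1 replicate left out. For the ranks of named genes, the median was 4282 among all genes and 3833.5 among protein-coding genes. The median SD of log2 values, over genes with a mean of at least 1 FPKM, was 0.0937, against 0.11 with a pseudocount of 0.1 and 0.0859 with no filter on low values. The 100 leading genes held 33.4% of the summed FPKM and 18.5% of the summed counts. Lists whose members lay near 1 FPKM moved with the threshold, 8 of 58 at 0.5 FPKM and 8 at 2 FPKM, and 11 moved with TPM and 12 with at least 40 counts. Levels near 1 FPKM are the least certain, and counts limit what can be said of genes without a count.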

Other observations

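Pathway annotations in the authors' deposited table gave the following counts, which carry no test and overlap one another, and which are to be read against the 43.3% of protein-coding genes expressed. All 35 genes of DNA replication were expressed, as were 112 of 123 genes of the cell cycle, 44 of 46 of the proteasome and 127 of 132 of the spliceosome. Of 132 genes of oxidative phosphorylation, 116 were expressed. In ECM-receptor interaction, 29 of 83 genes were expressed, and in cytokine-cytokine receptor interaction 60 of 286. Olfactory transduction had 12 of 1119 genes expressed and 1053 with no count.

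Some abundant genes varied between libraries. The mitochondrial ATP synthase subunit mt-Atp6 had 2848, 756 and 640 FPKM in replicates 1, 2 and 3. Eno1b, a close copy of the enolase gene, had 31.8, 407 and 369 FPKM. The ferritin heavy chain Fth1 averaged 812 FPKM and ranged between 560 and 957 FPKM. Replicate 1 was the library apart for mt-Atp6 and Eno1b. None of mt-Atp6, Eno1b and Fth1 was among the 32 genes searched for near-identical copies. Whether their counts were split with copies was not tested.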
